A study of Mus musculus with 6 samples.

Results

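The EGF family ligands and ERBB receptors described here are 10 genes, taken by name from the count files of a mouse mammary gland study: the ligand genes Nrg1, Hbegf, Tgfa, Epgn, Ereg and Btc and the receptor genes Egfr, Erbb2, Erbb3 and Erbb4. All 10 were among the 23337 genes of the files, and all 10 passed the filter on low counts that left 13925 genes for testing. Poly(A) RNA sequencing covered basal cells, the outer epithelial layer of the mammary ducts, sorted as live CD45-negative, CD31-negative, CD24-low, CD49f-high cells and lysed without culture. There were 4 libraries from Vim knockout mice (Vimtm1Cba/tm1Cba on both alleles) and 2 from wild-type mice (Vimwt/wt), all aged 15 weeks and of a 129/Sv X C57BL/6 background, and each library pooled 2 to 3 mice. The labels do not say whether the pools shared animals, so p-values measure the spread between these pools. The mice had been handled in 2 independent experiments, and a code that the deposited files carry in their names places wild type 1 with knockout 1 and 2 in experiment 1 and wild type 2 with knockout 3 and 4 in experiment 2.

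Ligands of this family are made as membrane-anchored precursors. Proteases of the ADAM group release them, and the freed EGF-like module binds ERBB receptor tyrosine kinases, which pair and signal through the RAS-ERK and PI3K-AKT cascades. Tgfa and Epgn bind Egfr, Hbegf, Ereg and Btc bind Egfr and Erbb4, and Nrg1 binds Erbb3 and Erbb4, while Erbb2 has no known ligand of its own and serves as a partner. In the mouse gland, Nrg1 made by basal cells is known to act on neighbouring luminal cells, and Egfr and its ligands are known for their part in duct growth.

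Of the 6 ligands, 5 are shown first by the coding sequence of the module that binds the receptor (Hbegf is not shown), since the counts of 3 of them, Nrg1, Ereg and Epgn, differ most between the libraries below. Each was found in the GENCODE M21 coding sequence (GRCm38, the assembly of mm10) by the spacing of its 6 cysteine codons, which are in capitals, and is written 5′ to 3′ on the coding strand.
Nrg1: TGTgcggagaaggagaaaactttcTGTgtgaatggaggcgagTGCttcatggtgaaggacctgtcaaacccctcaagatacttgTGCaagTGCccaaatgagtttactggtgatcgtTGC
Ereg: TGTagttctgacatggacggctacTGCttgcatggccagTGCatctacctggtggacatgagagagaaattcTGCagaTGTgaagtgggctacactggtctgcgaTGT
Epgn: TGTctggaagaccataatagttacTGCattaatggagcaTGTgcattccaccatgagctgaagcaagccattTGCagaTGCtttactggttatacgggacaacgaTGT
Tgfa: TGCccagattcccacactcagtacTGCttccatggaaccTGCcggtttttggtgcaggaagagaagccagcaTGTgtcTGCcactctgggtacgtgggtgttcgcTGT
Btc: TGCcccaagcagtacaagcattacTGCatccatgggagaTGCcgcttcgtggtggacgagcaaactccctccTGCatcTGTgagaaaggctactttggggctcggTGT
The Nrg1 module (chromosome 8, minus strand, between 31837698 and 31849398) has 40 codons, and the other 4 have 36 with the same gaps of 7, 4, 10, 1 and 8 codons between the cysteines. In Nrg1 the gaps are 7, 5, 13, 1 and 8. The Ereg module lies on chromosome 5 between 91088496 and 91089111, the Epgn module between 91031152 and 91032237 and the Btc module between 91362421 and 91366197 on the minus strand, and the Tgfa module lies on chromosome 6 between 86263200 and 86269960. Each module spans 2 exons, and all of its bases fall in exons over which reads had been counted. Among the 4 modules of 108 bases, Tgfa and Btc were the most alike, with 67 identical bases, and Tgfa and Ereg the least, with 49; Ereg and its chromosomal neighbour Epgn shared 54. Nrg1 had 2 distinct module sequences among the 9 coding transcripts with a match, and the one shown is that of the longest coding sequence.

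Vim, the targeted gene, was lower in every library labelled knockout. It had 92.4, 104.5, 111 and 111 CPM in knockout 1 to 4, against 215 and 241 CPM in wild type 1 and 2 (CPM, read counts scaled to the TMM-adjusted library total). Its log2 fold change was -1.12, with an SE of 0.12 (edgeR adjusted p = 0.019), and with 1 library left out the adjusted p ran from 0.0403 to 0.0908. Total counts ran from 25347967 to 31200622. The basal markers Krt14, Krt5 and Acta2 were at 1702 to 4551 CPM in knockout and at 2277 to 4563 CPM in wild type, and Trp63, the basal transcription factor p63, was at 681 ± 61.0 CPM in knockout (SD, n = 4) and 719 ± 31.02 CPM in wild type (SD, n = 2). Ptprc, which encodes the excluded CD45, was at 0 to 0.126 CPM in knockout and at 0 and 0.456 CPM in wild type. Of 12 endothelial markers 0 were called. All 12 had a negative log2 fold change, with a median of -1.98, where 7299 of the 13925 genes tested were negative and the median was -0.01. Of the 12, 11 had an unadjusted p under 0.05 and 9 had all knockout libraries below both wild-type libraries, each of which held for 8.57% of all genes. Pecam1, which encodes the excluded CD31, had 3.46, 7.35, 6.48 and 4.41 CPM in knockout 1 to 4, against 30.4 and 12.1 CPM in wild type 1 and 2. The summed level of the list was 51.8 to 67.6 CPM in knockout and 76.3 to 202 CPM in wild type, and each of the 12 markers was highest in wild type 1. Fibroblast markers summed to 338 to 436 CPM in knockout and 328 and 440 CPM in wild type, of which Pdpn alone gave 172 to 328 CPM per library. Of 8 fibroblast markers 0 were called, and 7 had a negative log2 fold change, with a median of -0.34. By edgeR 2 of the 8 had an unadjusted p under 0.05, and 2 had all knockout libraries below both wild-type libraries, each beside 8.57% of all genes. Of 6 adipocyte markers 5 averaged under 1 CPM, and the sixth, Fabp4, had 5.20 to 8.50 CPM in knockout and 42.7 and 11.5 CPM in wild type 1 and 2.

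The levels of the family in basal cells spanned 3 orders of magnitude per unit of length. On the TPM scale, which divides each count by the counted exon length, Nrg1 was the highest member, at 354 ± 77.3 TPM in knockout (SD, n = 4) and 563 ± 121 TPM in wild type (SD, n = 2). Hbegf followed in knockout at 198 ± 7.96 TPM, above Egfr at 132 ± 10.8 and Ereg at 103 ± 42.9 TPM. Among the members in wild type, Ereg came next to Nrg1 at 246 ± 76.0 TPM, above Hbegf at 187 ± 59.0 and Egfr at 122 ± 22.2 TPM. Areg, a ligand gene of the family outside the 10, had 233.9 ± 103.5 TPM in knockout and 270 ± 75.6 TPM in wild type. Its mean was thus above that of Hbegf in knockout and that of Ereg in wild type, with overlapping ranges. Epgn, Erbb2 and Tgfa had close levels in knockout, at 51.2 ± 33.2, 46.2 ± 11.1 and 45.6 ± 11.0 TPM. Below them came Erbb3 at 15.7 ± 5.34 TPM in knockout and 18.5 ± 13.7 TPM in wild type, Btc at 3.29 ± 1.14 and 2.97 ± 0.176 TPM, and Erbb4 at 0.245 ± 0.152 and 0.396 ± 0.0766 TPM. Of neighbours in this order, Egfr and Ereg, Ereg and Epgn, Epgn and Erbb2, and Erbb2 and Tgfa overlapped in range among the knockout libraries, and Ereg and Hbegf and also Erbb2 and Tgfa did so in wild type.

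**Figure D1:**
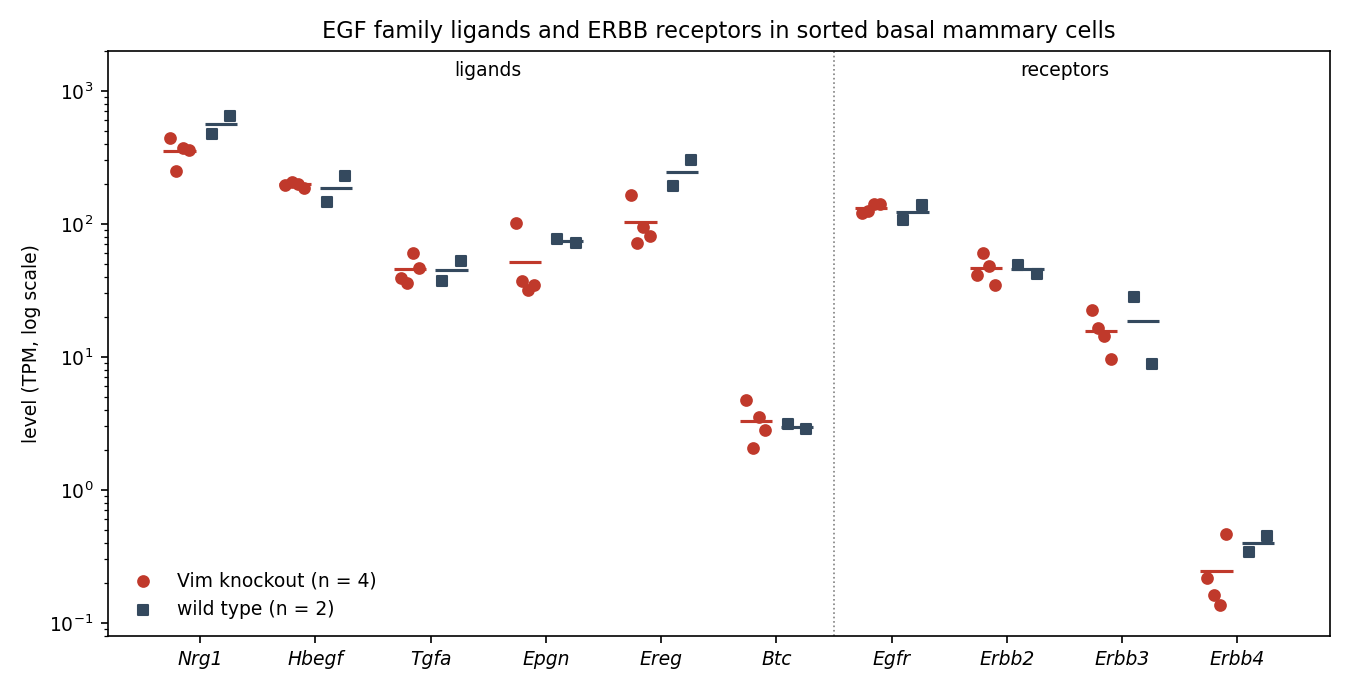
Level of each member in TPM on a log axis, with Vim knockout libraries as circles on the left of each pair, wild-type libraries as squares on the right and a bar at each group mean. Nrg1 is the highest and Erbb4 the lowest in both genotypes, and the knockout circles of Nrg1 and Ereg all lie below both wild-type squares.

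Some of these levels rest on part of the gene. The annotation used for counting holds 2103 exon bases of Nrg1 over 100.2 kb, whereas GENCODE M21 places Nrg1 over 1069.5 kb with 10351 exon bases, of which 20.3% were counted. Nrg1 has several known promoters and isoforms, and transcripts made of exons outside those counted add nothing to its values. For Erbb4 34.5%, for Hbegf 49.1% and for Egfr 56.8% of the GENCODE exon bases were counted, against 94.3% for Epgn, 95.9% for Erbb2 and all for Ereg. Order between genes is therefore less certain than a difference between genotypes in the same gene.

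No member was called different between knockout and wild type. At an adjusted p under 0.05 by edgeR's quasi-likelihood test over all genes, 0 of 10 members passed, beside 0.079% of all genes tested (11 genes, with 0.0575% higher and 0.0215% lower in knockout). At an unadjusted p under 0.05 there were 2 members, Ereg and Nrg1, both lower in knockout, beside 8.57% of all genes in either direction, 4.48% higher and 4.09% lower. The same 2 ligands were the members whose 4 knockout libraries all lay below both wild-type libraries, which held for 8.57% of all genes. No member had all 4 above both, which held for 7.6% of all genes, and 16.2% of all genes lay on either side. Over the 10 members the median log2 fold change was -0.09, with 5 above 0 and 5 below, beside a median of -0.01 over all genes. In bulk libraries such as these, fewer cells that express a gene and less RNA per cell cannot be told apart.

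Ereg, which encodes epiregulin, had the largest difference of the family. It had 235, 102, 135 and 119 CPM in knockout 1 to 4, against 266 and 449 CPM in wild type 1 and 2. The groups do not overlap, knockout 1 stood nearest to the wild-type range, and wild type 2 was the highest library. The mean was 41.4% of the wild-type mean, a log2 fold change of -1.27 (SE 0.33, 95% interval -2.03 to -0.51, edgeR adjusted p = 0.277). By DESeq2 Ereg was called (log2 fold change -1.26, adjusted p = 0.0131), where 1.88% of all genes were called and 0.711% were called lower. Over all alternatives tried its adjusted p ran from 0.0131 to 0.9998, and no other alternative called it. Without wild type 2 the log2 fold change was -0.85, and without knockout 1 it was -1.57 (adjusted p = 0.0695).

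Nrg1, the neuregulin gene, had 316, 183, 271 and 266 CPM in knockout 1 to 4, against 336 and 493 CPM in wild type 1 and 2. All 4 knockout libraries lay below both wild-type libraries, and knockout 1 was nearest to wild type 1. The mean in knockout was 62.5% of that in wild type, a log2 fold change of -0.68 (SE 0.23, 95% interval -1.19 to -0.16, edgeR adjusted p = 0.418). Without wild type 2 the log2 fold change was -0.37, and no alternative called it. With the experiment as a replicate block, Nrg1 (-0.66, adjusted p = 0.207) and Ereg (-1.28, adjusted p = 0.281) had similar fold changes, and 0 of 10 members passed, beside 1.56% of all genes (1.12% higher and 0.438% lower).

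**Figure D2:**
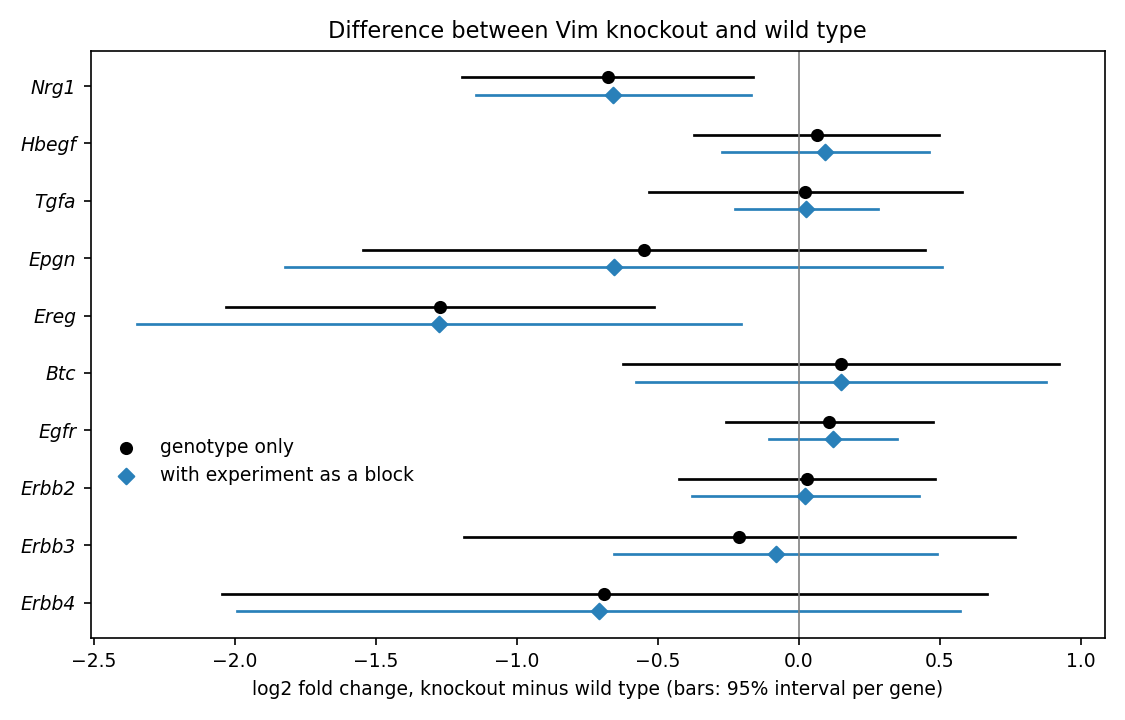
Log2 fold change, knockout minus wild type, for each member with its 95% interval per gene, without adjustment for the number of genes, from edgeR with genotype alone (black circles) and with the experiment as a replicate block (blue diamonds). The intervals of Nrg1 and Ereg lie below 0 in both fits and those of the other 8 members include 0.

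Wild type 2 was the highest library for both Ereg and Nrg1, while endothelial markers were highest in wild type 1, with 202 CPM in sum there and 76.3 CPM in wild type 2. Their part in the 2 differences was not tested. Within experiment 1 the mean log2 CPM difference from the wild-type library was -0.78 for Ereg and -0.48 for Nrg1, and within experiment 2 it was -1.82 and -0.87. Each experiment holds 1 wild-type library, so these values have no error of their own on the wild-type side.

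Epgn, which encodes epigen, was like Ereg highest in knockout 1 among the knockout libraries. It had 58.9, 21.9, 18.9 and 21.1 CPM in knockout 1 to 4, against 44.0 and 44.5 CPM in wild type 1 and 2. Knockout 1 was above both wild-type libraries and the other 3 knockout libraries were below both. The log2 fold change was -0.55 (SE 0.43, 95% interval -1.55 to 0.45, edgeR adjusted p = 0.857). Without knockout 1 it was -1.08 (SE 0.13, adjusted p = 0.0536).

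Epgn and Ereg are neighbours in a cluster of ligand genes on mouse chromosome 5. In mm10 coordinates Epgn lies at 91027517 to 91035212, Ereg at 91074617 to 91093649 and Areg, the amphiregulin gene, at 91139615 to 91148432, all on the plus strand and 39.4 and 46.0 kb apart. Btc, at 91357261 to 91402994 on the minus strand, is 209 kb beyond Areg. Areg, an Egfr ligand that mouse ducts need for pubertal growth, is also known as a product of hormone-sensing luminal cells. It had 160, 71.0, 78.5 and 79.7 CPM in knockout 1 to 4, against 130 and 94.0 CPM in wild type 1 and 2. Knockout 1 was again the highest library and the other 3 knockout libraries were below both wild-type ones (log2 fold change -0.20, SE 0.32, edgeR adjusted p = 0.955; 0.069 without wild type 1). Hormone-sensing luminal markers summed to 644, 554, 495 and 520 CPM in knockout 1 to 4, against 521 and 488 CPM in wild type 1 and 2, but S100a6 alone gave 413 CPM of the sum in knockout 1. Of the 12 markers 0 were called and 11 had a positive log2 fold change, where 6626 of the 13925 genes tested did. By edgeR 5 had an unadjusted p under 0.05, beside 8.57% of all genes. All knockout libraries lay above both wild-type libraries for 3, beside 7.6% of all genes. Knockout 1 was the highest library for 6, and the share over all genes was not taken. The part of these markers in the Areg values was not tested. In Epgn, Ereg and Areg knockout 1 was the highest of the knockout libraries, as it also was for Btc, Nrg1 and Erbb3, and the share over all genes was not taken here either. Relative to wild type 1, which shares their experiment, knockout 1 differed by 0.42 for Epgn, -0.18 for Ereg and 0.30 for Areg on the log2 scale, and knockout 2 by -0.99, -1.38 and -0.87.

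**Figure D3:**
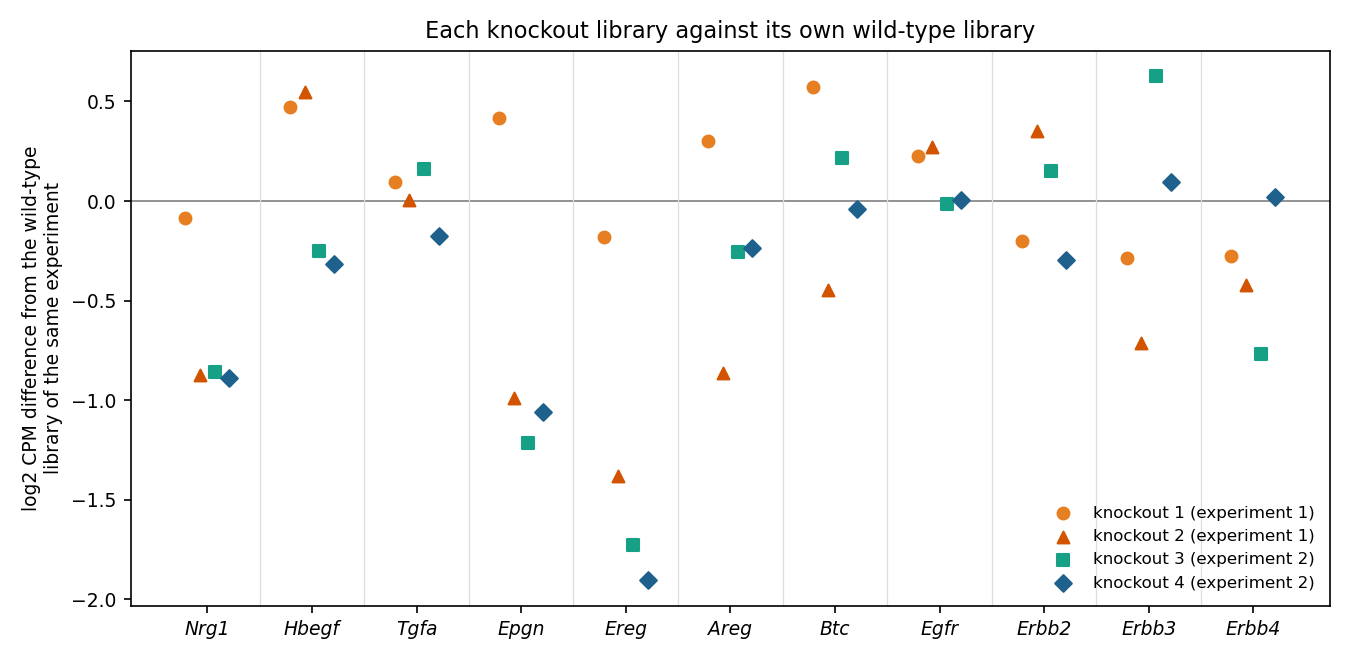
Difference in log2 CPM (with 0.5 CPM added) between each knockout library and the wild-type library of the same experiment, for the 10 members and Areg, with 1 symbol per knockout library. For Nrg1, Epgn and Ereg, knockout 2, 3 and 4 lie between -1.91 and -0.86, while knockout 1 lies between -0.18 and 0.42.

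**Figure D4:**
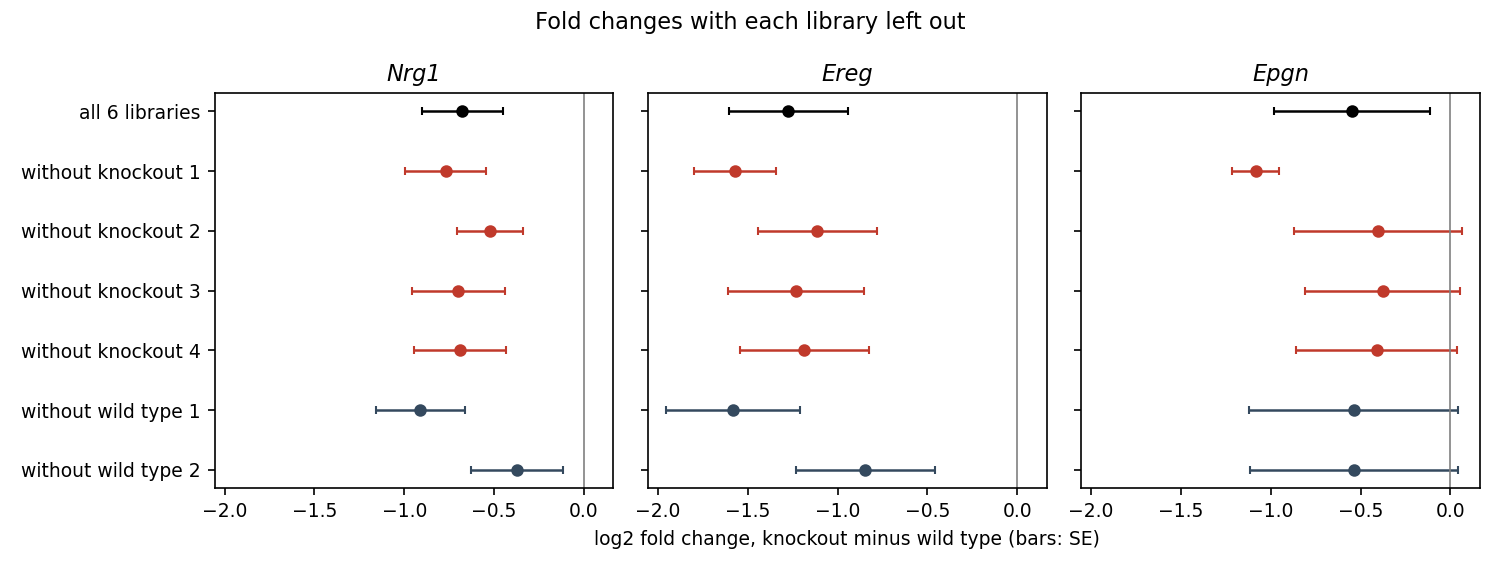
Log2 fold change of Nrg1, Ereg and Epgn, knockout minus wild type, with its SE, over all 6 libraries and with each library left out in turn. The values keep their sign in every case, and leaving out knockout 1 moves Epgn to -1.08 while leaving out wild type 2 moves Nrg1 to -0.37.

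Btc, the betacellulin gene and the other member of the cluster, was low. It had 4.68, 2.06, 3.53 and 2.87 CPM in knockout 1 to 4, against 2.98 and 2.96 CPM in wild type 1 and 2, and the knockout libraries lay on both sides of the wild-type ones. Its log2 fold change was 0.15 (95% interval -0.62 to 0.92, edgeR adjusted p = 0.966).

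Hbegf, the heparin-binding EGF-like growth factor gene on chromosome 18, had 161, 169, 165 and 158 CPM in knockout 1 to 4, against 116 and 197 CPM in wild type 1 and 2. The knockout libraries were close to each other and lay between the wild-type libraries. The log2 fold change was 0.06 (95% interval -0.37 to 0.50, edgeR adjusted p = 0.977), which was -0.25 without wild type 1. Within experiment 1 the log2 CPM difference from wild type was 0.51 and within experiment 2 it was -0.29, so the sign differed between the experiments.

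Tgfa, the transforming growth factor alpha gene, had 56.3, 52.8, 89.2 and 70.4 CPM in knockout 1 to 4, against 52.7 and 79.6 CPM in wild type 1 and 2. Its levels were higher in experiment 2 in both genotypes. The difference between genotypes was 0.02 on the log2 scale (95% interval -0.53 to 0.58, edgeR adjusted p = 0.998).

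The make-up of the 6 ligand members was described by shares. The sum leaves out the further ligands, of which Areg had 171 to 389 TPM per library and Nrg2 19.1 to 45.6 TPM. The summed TPM of the 6 ligands was 945, 604, 762 and 709 in knockout 1 to 4, against 933 and 1304 in wild type 1 and 2. Ereg made up 11.5% to 17.5% of that sum in knockout and 20.6% and 23.0% in wild type. Hbegf made up 20.9% to 34.1% in knockout and 15.6% and 17.6% in wild type. Nrg1 made up 41.6% to 50.3% in knockout and 51.2% and 49.7% in wild type, so the groups overlapped. These shares add up to a fixed total within each library, and a higher share of Hbegf does not mean a higher level.

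**Figure D5:**
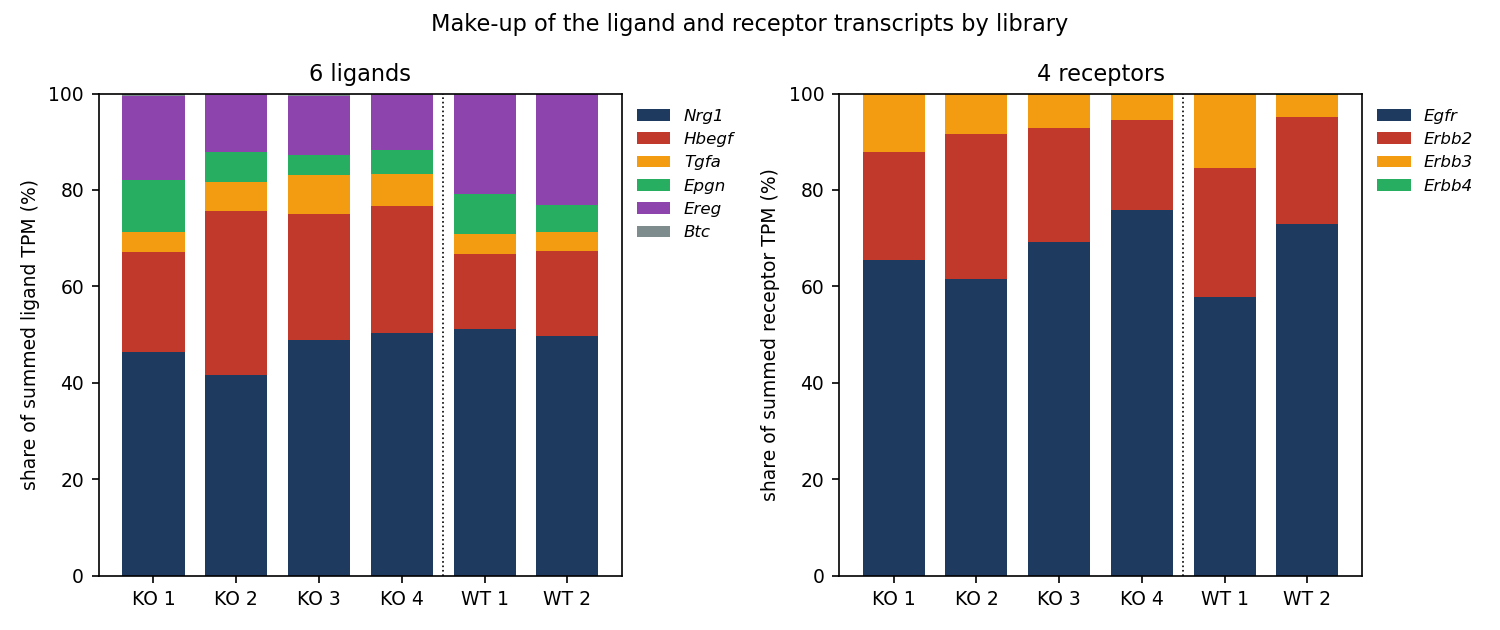
Share of each member in the summed TPM of the 6 ligands (left) and the 4 receptors (right), 1 bar per library, with knockout (KO) bars left of wild-type (WT) bars. Nrg1 holds 41.6% to 51.2% of the ligand sum, and Egfr holds 57.8% to 75.9% of the receptor sum.

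The receptor transcripts differed little in sum, which was 186, 201, 204 and 185 TPM in knockout 1 to 4, against 184 and 188 TPM in wild type 1 and 2. Egfr, the receptor of most of these ligands, had 268, 276, 317 and 322 CPM in knockout 1 to 4, against 228 and 320 CPM in wild type 1 and 2. Its values were again higher in experiment 2, and the groups overlapped (log2 fold change 0.11, 95% interval -0.26 to 0.47, edgeR adjusted p = 0.953). Erbb2 had 71.2, 105, 83.6 and 61.4 CPM in knockout, against 81.9 and 75.3 CPM in wild type (0.03, 95% interval -0.42 to 0.48, edgeR adjusted p = 0.995). For Hbegf, Tgfa, Btc, Egfr and Erbb2 the 95% intervals leave out a difference of a factor of 2 in either direction.

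Erbb3, the neuregulin receptor with little kinase activity of its own, is known to be higher in luminal than in basal cells of the gland. It had 30.97, 22.9, 20.0 and 13.7 CPM in knockout 1 to 4, against 37.8 and 12.8 CPM in wild type 1 and 2. The wild-type libraries were the highest and the lowest of the 6, and all knockout libraries lay between them (log2 fold change -0.21, 95% interval -1.19 to 0.77, edgeR adjusted p = 0.962; 0.80 without wild type 1). Luminal progenitor markers also ran higher in wild type 1, where 9 of 12 were above their level in wild type 2 and 7 of 12 had their highest value. The 3 highest of the list did not all do so: Lcn2 had 1339 and 1047 CPM, Krt8 642.5 and 742 CPM and Krt18 612 and 546 CPM in wild type 1 and 2. Other lists leaned the same way. Wild type 1 was above wild type 2 for 9 of 14 basal, 8 of 12 hormone-sensing luminal, 5 of 8 fibroblast and 12 of 12 endothelial markers. It was the highest library for 3, 3, 3 and 12 of them. The shares over all genes were not taken. Of the 12 luminal progenitor markers 0 were called with genotype alone. With the replicate block 1 rose, where 1.12% of all genes did. This was Ltf (edgeR adjusted p = 0.037), named after its values were seen. The summed level of the list was 2813 to 3031 CPM in knockout and 3255 and 2663 CPM in wild type, and none of its 12 members was at 0. The part of luminal transcripts in the Erbb3 values was not tested.

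Erbb4, the other neuregulin receptor, was very low. It had 10, 6, 6 and 18 counts in knockout 1 to 4, against 16 and 18 counts in wild type 1 and 2, or 0.202 to 0.708 CPM in knockout and 0.487 and 0.693 CPM in wild type. The log2 fold change was -0.69 with a 95% interval from -2.05 to 0.67 (edgeR adjusted p = 0.882). With so few counts and libraries, a fall by a factor of 2 could not be told from no change.

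The further ligands of the family were not called. Besides Areg, Nrg2 had 33.1, 37.5, 33.6 and 28.02 CPM in knockout 1 to 4, against 43.2 and 19.6 CPM in wild type 1 and 2, so that the knockout libraries lay between the wild-type ones (log2 fold change 0.07, edgeR adjusted p = 0.984). Egf, at 0.276 to 0.537 CPM in knockout and 0.760 and 0.116 CPM in wild type, and Nrg4, at 0.0672 to 1.26 and 1.19 and 0.0385 CPM, were close to the detection limit, and Nrg3 had no count in any library. Their log2 fold changes were -0.24 for Egf and -0.34 for Nrg4 (edgeR adjusted p = 0.982 for Nrg4), and both signs turned without wild type 1.

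Of 12 genes that process the ligands, 0 passed. Adam17, the main protease that releases Tgfa, Hbegf, Ereg, Epgn and Areg, had 60.8, 60.1, 64.1 and 61.0 CPM in knockout 1 to 4, against 77.3 and 79.6 CPM in wild type 1 and 2. The groups did not overlap and each was tight, though wild type has 2 libraries (log2 fold change -0.35, SE 0.10, edgeR adjusted p = 0.295 with genotype alone, and 0.094 with the replicate block). The log2 CPM difference was -0.35 in each experiment. Of the 12 genes 2, Adam17 and Cd9, had all knockout libraries below both wild-type libraries, which held for 8.57% of all genes. Rhbdf2, an iRhom that guides Adam17 to the cell surface, had a log2 fold change of -0.28 (adjusted p = 0.683), the tetraspanin gene Cd9 one of -0.11 (adjusted p = 0.926) and Adam15 one of 0.19 (adjusted p = 0.932). The median over the list was 0.02.

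Of 19 receptor regulators, 0 passed with genotype alone and 1 rose with the replicate block, where 1.12% of all genes did. This was Ptprj, a receptor-type tyrosine phosphatase gene, with 52.0, 65.2, 99.3 and 105 CPM in knockout 1 to 4, against 41.7 and 66.5 CPM in wild type 1 and 2. Its values were higher in experiment 2, and in each experiment the knockout mean was above the wild-type library (log2 fold change 0.56, SE 0.12, edgeR adjusted p = 0.0476 with the replicate block, and 0.717 with genotype alone). Ptpn12, a phosphatase gene, differed by -0.33 in log2 (SE 0.11, edgeR adjusted p = 0.399), the ubiquitin ligase gene Cblb by -0.31 (adjusted p = 0.695) and Muc4, a membrane mucin that binds Erbb2, by -0.86 (adjusted p = 0.758). The list had 5 members above 0 and 14 below, with a median of -0.05.

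Of 29 adaptor and kinase genes downstream of the receptors, 0 passed in either fit. Araf, a RAF kinase gene, had 61.4, 60.02, 57.7 and 69.8 CPM in knockout 1 to 4, against 85.7 and 74.8 CPM in wild type 1 and 2, without overlap (log2 fold change -0.37, SE 0.12, edgeR adjusted p = 0.391). Gab1, an adaptor of Egfr, had a log2 fold change of 0.46 (adjusted p = 0.587), the RAS exchange factor gene Sos2 one of -0.22 (adjusted p = 0.587) and the adaptor gene Grb2 one of 0.22 (adjusted p = 0.687). The median of the list was -0.04. Of its 29 genes 3 had all knockout libraries below both wild-type libraries and 2 had all above, beside 8.57% and 7.6% of all genes.

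Among 19 output and feedback genes of the ERK cascade, 0 passed with genotype alone and 2 rose with the replicate block, where 1.12% of all genes did. The list was chosen with earlier results of these data known, so this count is no test of the list. Dusp5, a nuclear ERK phosphatase gene, had 218, 240, 312 and 294 CPM in knockout 1 to 4, against 101 and 174 CPM in wild type 1 and 2 (log2 fold change 0.99, SE 0.12, edgeR adjusted p = 0.00461 with the block, and 0.269 with genotype alone). Sprr1a, a cornified envelope gene, had 12.5, 17.8, 13.4 and 17.2 CPM in knockout, against 3.802 and 8.01 CPM in wild type (1.42, SE 0.28, edgeR adjusted p = 0.0463 with the block, and 0.236 with genotype alone). In both genes, and in no other of the list, all knockout libraries were above both wild-type libraries, which held for 7.6% of all genes. In 4 of the 19, Dusp6 and Spred3 among them, all knockout libraries were below both, which held for 8.57% of all genes. Dusp6, the cytoplasmic ERK phosphatase gene, stood on the other side, at 604, 662, 563 and 566 CPM in knockout 1 to 4, against 806 and 734 CPM in wild type 1 and 2 (-0.36, SE 0.12, edgeR adjusted p = 0.432 with genotype alone, and 0.114 with the block). Spred3, an inhibitor of the RAS-ERK cascade, had 9.84, 10.1, 11.55 and 10.2 CPM in knockout, against 15.45 and 16.6 CPM in wild type (-0.62, SE 0.15, edgeR adjusted p = 0.256 with genotype alone, and 0.0612 with the block). Over the list 6 members were above 0 and 13 below, with a median of -0.08, and 5 had an unadjusted p under 0.05, 2 of them higher and 3 lower, beside 8.57% of all genes. DESeq2, which called 1.88% of all genes, called Sprr1a (adjusted p = 0.00179), Dusp5 (0.0111) and Spred3 (0.0329).

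The genes whose profile over the 6 libraries was most like that of Ereg, the member with the smallest p, were Htra1, Cftr, Atp13a4, 3110082D06Rik and Slc1a3. Their root-mean-square difference from Ereg in centred log2 CPM was 0.16, 0.20, 0.23, 0.24 and 0.24, where Ereg itself varied by 0.75 about its mean. By edgeR their log2 fold changes were -0.96, -0.92, -1.39, -1.32 and -0.97, with adjusted p from 0.277 to 0.744, and none was called. The genes were picked by likeness over the same 6 libraries, so fold changes below 0 follow from the choice and are no separate result.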

How the data were processed

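The authors deposited raw read counts per gene, made with featureCounts 1.5.1 over exons of a UCSC mm10 annotation in the reverse-stranded setting (option 2), per the file headers. The submitters' processing notes also name bcl2fastq 2.17, STAR 2.5.2b and Subread 1.5.1. The header shows no option for reads that map to several places or overlap several genes.

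Counts were tested here with edgeR 4.0.16 in R 4.3.3 (TMM, filterByExpr, glmQLFit with robust fitting, glmQLFTest, 2-sided), with genotype as the only term and Benjamini-Hochberg adjustment over 13925 genes; 9412 genes were not tested. CPM used TMM-scaled totals of the tested genes, and TPM used the deposited exon lengths. Alternatives were other size factors, DESeq2 1.42.0, limma-voom (limma 3.58.1), other filters, a threshold of 0.1, replicate blocks and each library left out. The test was tried on simulated data first. The members, lists and tests were chosen with earlier results of these data known. Genes named were all members and Vim. From each of 5 pathway lists they were the genes called in either fit and then those with the smallest p, up to 4. From marker lists they were some of the 3 highest genes, Trp63, Ptprc, Pecam1 and, after its values were seen, Ltf. The 5 genes most like the member with the smallest p were named too.

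Deviations from the group means correlated over genes, within an experiment, at r = 0.316, 0.286, 0.251 and 0.414 between knockout and wild-type libraries, and negatively across experiments, and these values are not independent with 2 wild-type libraries. Deviations in each group sum to 0, so the values across experiments mirror those within them and a mix of signs was forced. Which knockout libraries went with which wild-type library was free, and it followed the code in the file names. The pairing rests on that code and on the 2 experiments that the labels name. The values given are from the fit without the experiment as a replicate block unless it is named. That block moved the errors both ways: the SE of Tgfa was 0.24 without it and 0.11 with it, and that of Ereg was 0.33 and 0.42. Exact permutation of 4 against 2 libraries could not give a p below 0.0667 and was not used. Counts carry no molecular identifiers, so counting error is a lower limit on the error.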

Additional observations from a re-analysis of the deposited data

Results flagged for a closer look

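Epgn stood out by 1 knockout library. Knockout 1 had 58.9 CPM, against 18.9 to 21.9 CPM in the other 3 knockout libraries, a gap that is 0.925 of the range of the group. Chance gives about 1 such flag in 20 groups, and 10 members were examined. Knockout 1 was the highest knockout library for Ereg, Areg and Btc of the same cluster too, and also for Nrg1 and Erbb3 on other chromosomes. The share of all genes that are highest there was not taken, and a link to the cluster was not tested.

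Hbegf was above the wild-type library in both knockout libraries of experiment 1 and below it in both of experiment 2. The knockout effect in experiment 2 minus that in experiment 1 was -0.80 on the log2 scale (SE 0.18, edgeR interaction term, adjusted p = 0.998 over all genes). Erbb3 went the other way, below wild type in experiment 1 and above it in experiment 2, with a difference of 0.89 (SE 0.39, edgeR adjusted p = 0.998). By this term 0 genes were called and 1 of 10 members, Hbegf, had an unadjusted p under 0.05, beside 4.21% of all genes, and each experiment holds 1 wild-type library, so both differences rest on single wild-type libraries.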

How the results depend on the processing

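The count of members called was 0 under every alternative except DESeq2, which called 1, Ereg. The count of all genes called was 11, and 9 to 14 under other size factors, filters, limma-voom and the threshold of 0.1, but 262 by DESeq2, 217 with the replicate block by experiment, and between 3 and 15 with 1 library left out. With 1 wild-type library left out, the remaining one is assumed to vary like the knockout libraries. The replicate block by experiment changed the call of no member and gave 3 of the named pathway genes a call, Ptprj, Sprr1a and Dusp5. Libraries that share a title number had r = 0.316 and -0.286, and the code in the file names does not pair them by title number. A replicate block by title number over 4 libraries called 12 genes and 0 members, Muc4 among the 12 (-1.91, edgeR adjusted p = 0.0173). In that fit Tgfa (-0.25), Erbb3 (0.27) and Nrg4 (0.995) had the other sign, and by limma-voom Egf (0.18) and Nrg4 (0.11) did; the cause was not tested. With 1 library left out, log2 fold changes crossed 0 for Hbegf (-0.25 to 0.50), Tgfa (-0.23 to 0.35), Btc (-0.057 to 0.33), Egfr (-0.10 to 0.37), Erbb2 (-0.11 to 0.14), Erbb3 (-0.78 to 0.80), Areg (-0.53 to 0.069), Egf (-0.99 to 1.70), Nrg2 (-0.38 to 0.78), Nrg4 (-1.43 to 3.56) and Adam15 (-0.061 to 0.52). Nrg1 (-0.91 to -0.37), Ereg (-1.58 to -0.85), Epgn (-1.08 to -0.38) and Erbb4 (-1.21 to -0.42) kept their sign there. Depth limits Erbb4, Egf and Nrg4, with 1 to 40 counts per library. The stricter filter left out 1 member and could give no value for it.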
